A study of Mus musculus with 6 samples.

Results

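Skeletal muscle transcripts stood out on 1 of 6 liver arrays, that of the first Mir137-/- mouse, named KO1 here. The set described here holds 35 genes of the skeletal muscle fibre out of 18193 genes with a named probe set. They were chosen by their levels on KO1 against the other arrays, as seen in earlier results of these data, so their level on that array against the other 5 is a description and carries no test. For each gene the level is that of the brightest probe set (highest mean over 6 arrays) annotated to that symbol alone. Among the 35 genes, 14 were classed as fast fibre genes, 4 as slow fibre genes, 2 as developmental genes and 15 as shared by fibre types.

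Liver RNA was measured at postnatal day 14 in 3 mice per genotype, with 1 mouse per whole-genome Affymetrix mouse array. Mir137-/- mice (KO1, KO2 and KO3) lacked miR-137 in the whole body, since the exons that hold it had been deleted with Cre in E14 embryonic stem cells and the allele passed on through crosses with C57BL/6 mice. Mir137+/+ mice (WT1, WT2 and WT3) were wild type, and both genotypes came from matings of heterozygous mice. No mouse received a treatment. No probe set was named for Mir137, so the deletion could not be read on these arrays. Levels are log2 units as deposited, and a difference of 1 is a 2-fold change in fluorescence.

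Of 9 hepatocyte markers none was over 1 log2 unit above every other array on KO1, a count that cannot show a lowering. Their differences between KO1 and the mean of the other arrays lay between -0.31 and 0.12, with a median of -0.04. Alb (albumin) was at 13.74 on KO1, 13.71 on KO2 and 13.72 on KO3 against 13.73, 13.77 and 13.79 on the WT arrays. Apoa1 (an apolipoprotein) lay between 13.72 and 13.79 and Ttr (transthyretin) between 13.48 and 13.54 over the 6 arrays. Others varied more among the arrays, and the widest of them, Tat (an amino acid enzyme, named after its values were seen), lay between 10.40 and 11.48, with 10.55 on KO1. The median gene was at 5.89 to 5.98 on every array. The study's methods name male mice, but Xist was at 4.24, 3.66 and 4.06 on the KO arrays and at 3.94, 10.91 and 10.81 on WT1, WT2 and WT3, and the Y-linked genes Eif2s3y and Kdm5d were low on WT2 and WT3 (1.77 to 2.51). The 7 measured exocrine pancreas markers were high on KO2 and WT2, among them Cpa1 at 7.70 and 6.28 against 3.40 to 3.70 on the other 4 arrays. Cela2a (8.56 and 7.97 against 4.80 to 5.12) and Prss2 (8.56 and 6.88 against 5.06 to 5.53) showed the same 2 arrays. None of the pancreas markers was highest on KO1.

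A skeletal muscle fibre is filled with sarcomeres, in which myosin thick filaments pull on actin thin filaments anchored at Z-discs. Calcium released from the sarcoplasmic reticulum binds troponin C and frees actin for myosin. Fast and slow fibres use different genes for the same parts, and embryonic and perinatal fibres use further myosins that are replaced after birth. Liver tissue itself holds no striated muscle fibres.

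Promoter windows show what genes of the set carry next to their starts, including genes such as Myh3 that did not stand out on KO1. RefSeq windows of 300 bases (250 before the start and 50 from it on, build GRCm38.p6) were held for 27 of the 35 genes, as 32 windows. Those of Acta1, Mylpf and Myh4 are printed because these genes had some of the largest differences on KO1, and that of Myh3 because this gene had none. The windows are chr8:123894726-123895025 (minus strand) for Acta1, chr7:127211358-127211657 (plus strand) for Mylpf, chr11:67237562-67237861 (plus strand) for Myh4 and chr11:67078050-67078349 (plus strand) for Myh3. Each runs from upstream to downstream of the gene's start, with capitals for the TATA box (TATAAA), the E-box core CAGCTG, the MCAT motif (CATTCC), the CArG box and the MEF2 site, searched on both strands.
Acta1: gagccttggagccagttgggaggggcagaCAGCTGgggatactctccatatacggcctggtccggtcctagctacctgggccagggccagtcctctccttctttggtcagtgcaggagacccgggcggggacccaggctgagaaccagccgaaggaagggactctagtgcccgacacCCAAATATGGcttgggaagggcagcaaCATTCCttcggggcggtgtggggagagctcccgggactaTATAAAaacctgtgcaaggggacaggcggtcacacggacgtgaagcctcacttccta
Mylpf: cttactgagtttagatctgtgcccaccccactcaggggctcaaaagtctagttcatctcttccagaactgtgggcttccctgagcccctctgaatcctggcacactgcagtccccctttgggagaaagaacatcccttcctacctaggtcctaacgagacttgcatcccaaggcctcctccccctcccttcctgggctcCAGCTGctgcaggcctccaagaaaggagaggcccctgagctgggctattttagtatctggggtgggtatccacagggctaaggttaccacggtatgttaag
Myh4: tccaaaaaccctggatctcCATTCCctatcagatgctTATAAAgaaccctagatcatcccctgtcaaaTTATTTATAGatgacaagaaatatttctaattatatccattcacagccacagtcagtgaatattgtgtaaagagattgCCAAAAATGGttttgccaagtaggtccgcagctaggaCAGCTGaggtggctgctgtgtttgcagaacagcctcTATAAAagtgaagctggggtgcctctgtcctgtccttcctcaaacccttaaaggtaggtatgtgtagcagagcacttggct
Myh3: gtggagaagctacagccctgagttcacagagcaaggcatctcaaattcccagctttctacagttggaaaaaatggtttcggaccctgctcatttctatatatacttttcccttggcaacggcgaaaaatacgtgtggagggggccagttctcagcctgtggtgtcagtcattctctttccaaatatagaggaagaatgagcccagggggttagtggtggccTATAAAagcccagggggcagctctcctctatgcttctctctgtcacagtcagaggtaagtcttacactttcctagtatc
The E-box core CAGCTG, a form of the sequence CANNTG that MyoD family factors bind, stood in 16 of the 32 windows (50%), against 16.3% of all 32851 windows. CANNTG itself stood in 81.2% of the muscle gene windows and in 72.3% of all windows. TATAAA was found in 25% against 13.6%, CATTCC in 31.2% against 14.7%, the CArG box in 12.5% against 1.63% and the MEF2 site in 18.8% against 3.19%. Myh4 and Myh3 lie in 1 cluster on chromosome 11, where the order in the GRCm38.p6 annotation is Myh3, Myh2, Myh1, Myhas, Myh4, Myh8 and Myh13. A match of letters is a description and does not mark a site in use.

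Over the 35 genes, 34 were highest on KO1, against a background of 16.4% of all genes above each of the other 5 arrays there. Of the 35 genes, 28 (80%) lay over 1 log2 unit above the highest of the other arrays, against a background of 0.363% (66 of 18193 genes). These shares follow from how the genes were chosen, and nothing is read from them. The median difference between KO1 and the mean of the other 5 arrays was 2.28, where the median over all genes was -0.01. On the other arrays the same median, each against its 5 companions, lay between -0.65 (WT2) and -0.40 (WT1). No gene of the set was over 1 above the rest there. KO1 is among the 5 companions each time, so these values follow largely from KO1 and do not show low levels on the other arrays. Summed on the linear scale, the set reached 8695 units on KO1, 811 on KO2 and 749 on KO3, against 755 on WT1, 651 on WT2 and 697 on WT3. Whether more muscle cells or more RNA per cell lay behind a level cannot be told apart in bulk tissue.

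**Figure D1:**
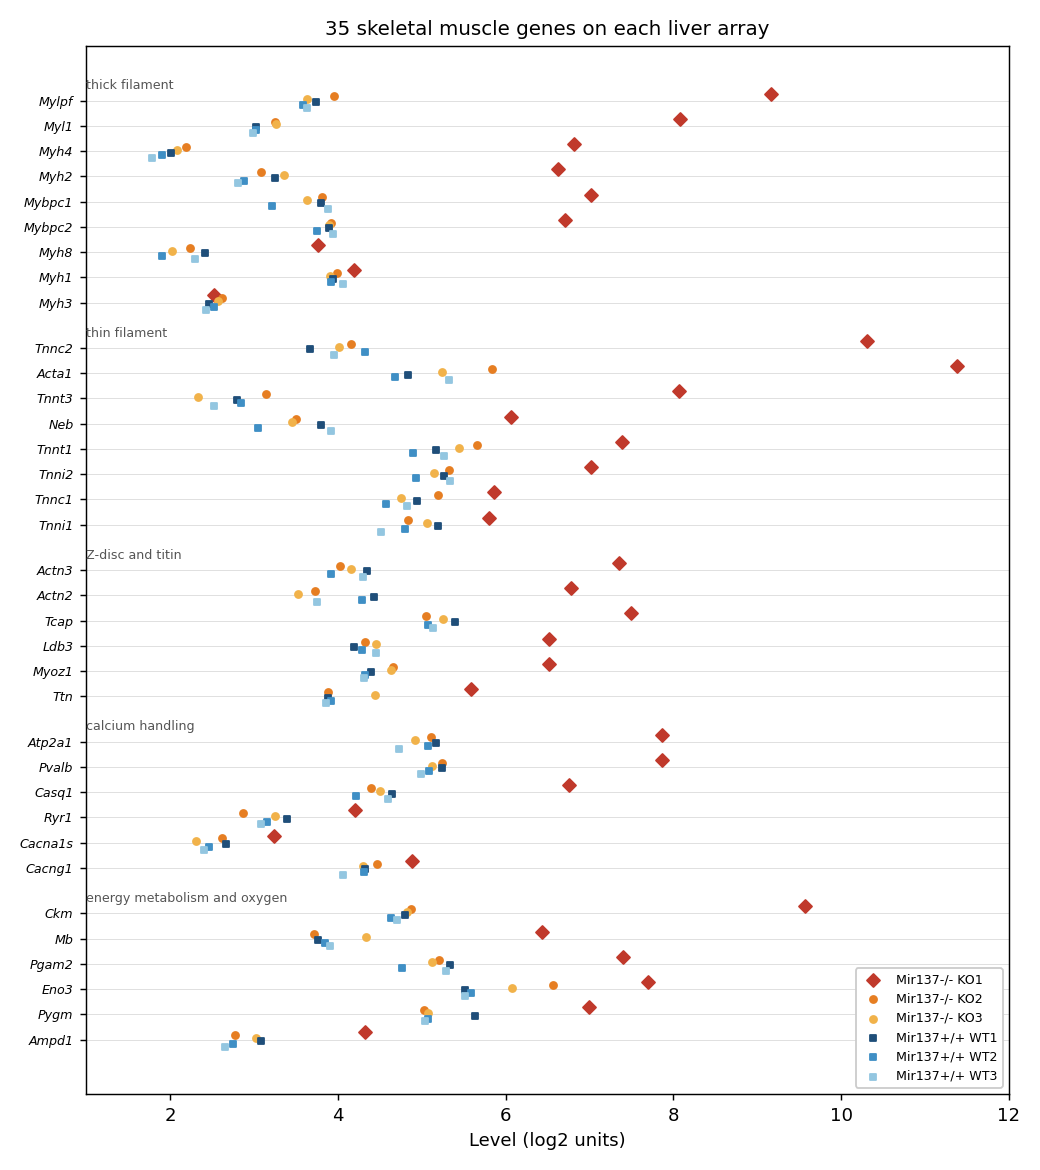
Levels of the 35 skeletal muscle genes (log2 units, horizontal axis) on each array, by gene and role, with KO1 as red diamonds, KO2 and KO3 as circles and the WT arrays as squares. KO1 lies to the right of the other 5 arrays for 34 genes, by over 1 unit for 28 of them, and Myh3 is the exception.

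By their brightest probe sets, the thick filament genes ranged from the smallest difference on KO1 of the set, 0.01 for Myh3, to 5.45 for Mylpf. Mylpf (1448371_at), the regulatory light chain of fast myosin, was at 9.16 on KO1, 3.95 on KO2 and 3.63 on KO3, against 3.74, 3.59 and 3.63 on WT1, WT2 and WT3. KO1 alone was high, and the other 5 arrays averaged 3.71 ± 0.15 (SD, n = 5). Myl1, the essential light chain of fast fibres, was at 8.08, 3.25 and 3.26 on the KO arrays against 3.02, 3.03 and 2.99 on the WT arrays. Myh4, the myosin heavy chain of the fastest mouse fibres (type IIb), was at 6.82, 2.19 and 2.08 on the KO arrays against 2.01, 1.90 and 1.79 on the WT arrays. The other 5 arrays lay between 1.79 and 2.19. Myh2, the heavy chain of fast oxidative fibres, was at 6.63, 3.09 and 3.36 on the KO arrays against 3.25, 2.88 and 2.81 on the WT arrays. Myosin-binding protein C, which lies along the thick filament, has a slow and a fast form. The slow form Mybpc1 was at 7.02 on KO1 against 3.21 to 3.88 on the other 5 arrays, and the fast form Mybpc2 was at 6.71 against 3.75 to 3.94. Both were thus high on KO1 without overlap, the slow form by 3.35 and the fast form by 2.83 over the mean of the others.

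The developmental myosins differed from each other. Myh8, the perinatal heavy chain, was at 3.77, 2.24 and 2.02 on the KO arrays against 2.42, 1.90 and 2.30 on the WT arrays, a difference of 1.59 on KO1. Myh3, the embryonic heavy chain, was at 2.53, 2.62 and 2.57 on the KO arrays against 2.46, 2.52 and 2.43 on the WT arrays. KO1 lay inside the range of the others for Myh3, 0.01 above their mean of 2.52 ± 0.08 (SD, n = 5).

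Thin filament genes held the 2 largest differences of the set by the brightest probe sets. Tnnc2 (1417464_at), the calcium sensor troponin C of fast fibres, was at 10.31 on KO1, 4.16 on KO2 and 4.02 on KO3, against 3.67, 4.33 and 3.95 on the WT arrays. Acta1 (1427735_a_at), the skeletal muscle alpha-actin, was at 11.38, 5.84 and 5.24 on the KO arrays against 4.84, 4.68 and 5.33 on the WT arrays. The differences on KO1 were 6.28 for Tnnc2 and 6.19 for Acta1, and KO2 had the highest Acta1 level of the other 5 arrays. Tnnt3, the troponin T of fast fibres that ties the complex to tropomyosin, was at 8.07 on KO1, 3.15 on KO2 and 2.33 on KO3, against 2.80, 2.85 and 2.52 on the WT arrays. Neb, the giant nebulin that runs along the thin filament, was at 6.07 on KO1 against 3.05 to 3.92 on the rest.

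The slow troponins differed less. Tnnt1, the slow troponin T, was at 7.39, 5.66 and 5.44 on the KO arrays against 5.17, 4.90 and 5.27 on the WT arrays. Tnnc1, the slow and cardiac troponin C, was at 5.86 on KO1, 5.20 on KO2 and 4.75 on KO3, against 4.95, 4.58 and 4.83 on the WT arrays. Tnni1, the slow inhibitory subunit, was at 5.80, 4.84 and 5.06 on the KO arrays against 5.20, 4.80 and 4.51 on the WT arrays. KO1 was the highest array for all 3 slow troponins, but only Tnnt1 was over 1 above every other array. Tnni2, the fast inhibitory subunit, was at 7.02 on KO1 against 4.93 to 5.34 elsewhere.

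The differences on KO1 for the fast and the slow gene of a troponin pair were 6.28 for Tnnc2 and 1.0 for Tnnc1, 5.34 for Tnnt3 and 2.10 for Tnnt1, and 1.82 for Tnni2 and 0.92 for Tnni1. By class the median difference was 3.03 for the fast genes (0.23 to 6.28), 1.55 for the slow genes (0.92 to 3.35), 0.80 for the 2 developmental genes and 2.18 for the shared genes (0.59 to 6.19). Of the 14 fast genes 13 were over 1 above every other array, of the 4 slow genes 2, of the developmental genes 1 and of the 15 shared genes 12. These differences are by the brightest probe sets and depend on that choice. The other Tnni2 probe sets had 4.97 (1416889_at) and -0.20 (1438608_at), and the other Myh1 probe sets 7.31 and 7.41. A level near the low end of an array understates a fold, and the part of this in the class medians was not tested. The order of fast over slow was a reason for choosing the genes and has no test.

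**Figure D2:**
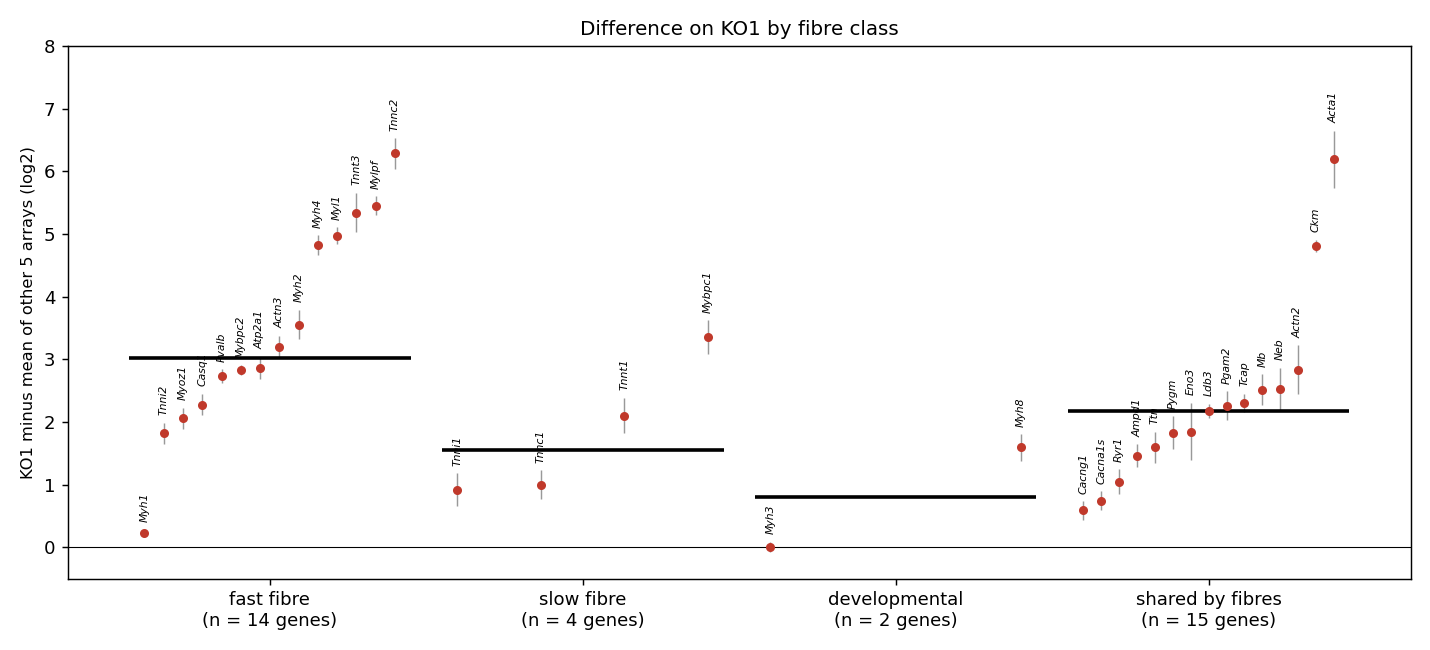
Difference between KO1 and the mean of the other 5 arrays (log2, vertical axis) for each gene by fibre class, with the SD of the other 5 arrays as bars (n = 5) and class medians as black lines. The medians, by the brightest probe sets, are 3.03 for fast, 1.55 for slow, 0.80 for developmental and 2.18 for shared genes. Myh1 is the lowest of the fast genes at 0.23, while its other probe sets lie at 7.31 and 7.41.

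All 6 genes of the Z-disc and titin group were over 1 above every other array. Actn3, the alpha-actinin of fast fibres, was at 7.35, 4.03 and 4.16 on the KO arrays against 4.35, 3.92 and 4.30 on the WT arrays. Actn2, the alpha-actinin of all striated fibres, was at 6.78 on KO1, 3.73 on KO2 and 3.53 on KO3, against 4.43, 4.29 and 3.75 on the WT arrays. KO1 was the highest array for Actn2, while KO2 and KO3 were below all 3 WT arrays. Tcap (telethonin, a cap on titin at the Z-disc) was at 7.49 on KO1 against 5.05 to 5.40 on the others. Ldb3, a Z-disc adaptor, was at 6.52 against 4.19 to 4.46, and Myoz1, a calcineurin-binding Z-disc protein of fast fibres, at 6.52 against 4.31 to 4.66. Ttn, the spring protein titin, was at 5.59 on KO1 by its brightest probe set against 3.86 to 4.44.

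Atp2a1, the calcium pump SERCA1 of fast fibres, was at 7.86, 5.11 and 4.92 on the KO arrays against 5.17, 5.08 and 4.73 on the WT arrays. Pvalb (parvalbumin, a calcium buffer of fast fibres) was at 7.87, 5.24 and 5.12 on the KO arrays against 5.24, 5.09 and 4.99 on the WT arrays. Casq1, the calcium store protein calsequestrin of fast fibres, was at 6.75 on KO1 against 4.22 to 4.65 elsewhere. The release channel Ryr1 and 2 subunits of its voltage sensor had smaller differences by their brightest probe sets. Ryr1 was at 4.20 on KO1 against 2.87 to 3.40. The sensor's main subunit Cacna1s was at 3.24 against 2.31 to 2.67, and its gamma subunit Cacng1 at 4.88 against 4.06 to 4.47. None of these 3 probe sets was over 1 above every other array, but the second Ryr1 probe set (1427306_at) was, at 4.55 on KO1 against 2.79 to 3.43.

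All 6 genes of energy metabolism and oxygen were over 1 above every other array. Ckm (1417614_at), the muscle creatine kinase, was at 9.57, 4.87 and 4.82 on the KO arrays against 4.80, 4.63 and 4.70 on the WT arrays and lay 4.81 above the mean of the other 5. Mb (myoglobin, the oxygen store of muscle) was at 6.43, 3.72 and 4.34 on the KO arrays against 3.77, 3.85 and 3.91 on the WT arrays. Pgam2, the muscle phosphoglycerate mutase of glycolysis, was at 7.40 on KO1 against 4.76 to 5.34 on the others. Pygm, the muscle glycogen phosphorylase, was at 7.0 against 5.03 to 5.64, and Ampd1, the muscle AMP deaminase, at 4.32 against 2.66 to 3.08. Eno3, the muscle enolase, was at 7.70 on KO1, 6.56 on KO2 and 6.08 on KO3, against 5.52, 5.59 and 5.52 on the WT arrays. All 3 KO arrays were above all WT arrays for Eno3.

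Of the 35 genes, 10 had several probe sets, and these did not all read alike. Of their 18 further probe sets, 15 were highest on KO1 and 9 were over 1 above every other array. Myh1, the heavy chain of fast IIx fibres, had the widest disagreement. Its brightest probe set (1452465_at) was at 4.19 on KO1, 3.99 on KO2 and 3.91 on KO3, against 3.94, 3.92 and 4.06 on the WT arrays. Its probe set 1427520_a_at was at 9.50, 2.54 and 1.64 on the KO arrays against 2.06, 2.34 and 2.35 on the WT arrays. The remaining one, 1427868_x_at, was at 9.51 on KO1 against 1.68 to 2.88. Both lay further above the other 5 arrays (by 7.31 and 7.41 over the mean) than any probe set chosen for the set, and the choice by brightness passed them over. Probe sets ending in _x_at can bind near-identical relatives, and the fast myosin heavy chains are such relatives, so the shares of Myh1, Myh2 and Myh4 are uncertain.

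Titin and Tnni2 gave the same kind of spread. The Ttn probe set 1427445_a_at was at 7.56 on KO1 against 2.10 to 2.42, while 1446450_at was at 3.90 on KO1 against 3.79 to 4.17 and did not stand out. For Tnni2, 1416889_at was at 8.37 on KO1 against 3.17 to 3.72, whereas 1438608_at was at 3.0 against 2.97 to 3.38. The second probe sets of Ckm (4.75 on KO1 against 4.21 to 4.63), Mb (4.08 against 3.94 to 4.25) and Myoz1 (3.26 against 2.72 to 3.21) were near the other arrays. With any probe set counted, 30 of the 35 genes were over 1 above every other array.

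**Figure D3:**
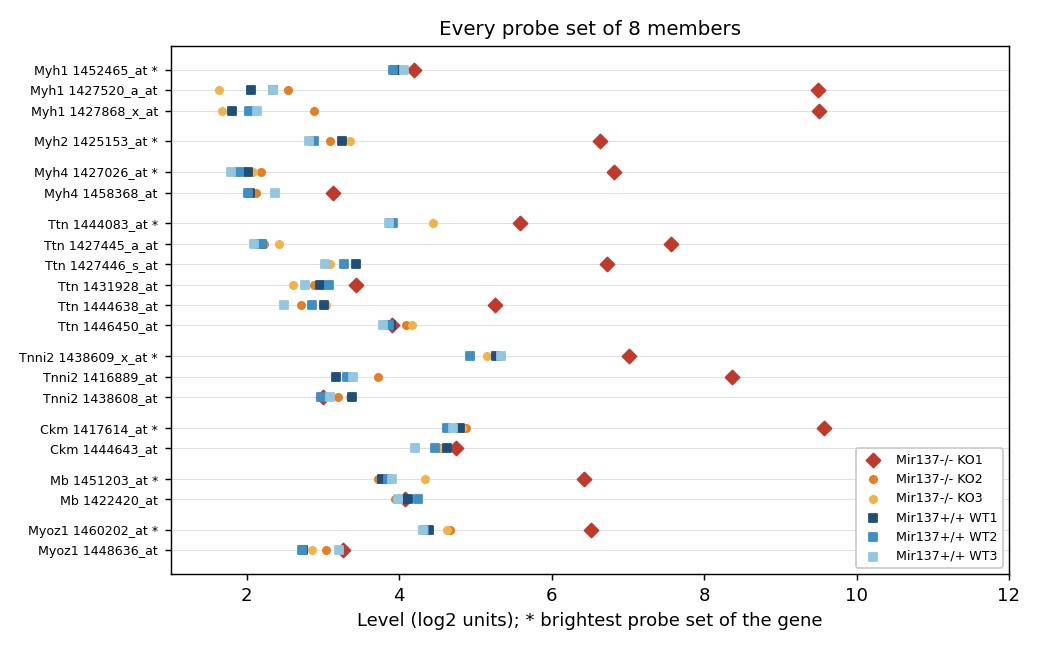
Level (log2 units, horizontal axis) of every single-gene probe set of 8 of the genes on each array, with KO1 as red diamonds and an asterisk at the brightest probe set. For Myh1, the brightest probe set reads 4.19 on KO1, while the other 2 read 9.50 and 9.51.

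Outside the 35 genes, the 15 that stood furthest above the other arrays on KO1 included 9 genes of the further muscle lists. Fabp3, the fatty acid-binding protein of heart and muscle, was at 8.59 on KO1 against 3.13 to 3.61 on the other 5 arrays. Sln (sarcolipin, a small regulator of the calcium pump) was at 8.53 against 3.34 to 3.62, and Myot (myotilin of the Z-disc) at 6.82 against 2.03 to 2.17. Smpx, a small muscle protein, was at 6.88 against 1.89 to 2.73. Ckmt2, the sarcomeric mitochondrial creatine kinase, was at 6.05 against 2.0 to 2.41. Myl2, the slow and cardiac regulatory light chain, was at 7.38 against 3.54 to 4.03, and Cox8b, a cytochrome oxidase subunit of heart, muscle and brown fat, at 8.23 against 4.25 to 5.02. The remaining 8 were Klhl41, Tmem182, Mlf1, Srl, Smtnl1, Myoz2, Asb5 and Myhas, with gaps of 1.86 (Myhas) to 2.98 (Klhl41) to the highest other array. Of the 66 genes over 1 above every other array, 28 were in the set, 23 in one of the other lists and 15 in no list. Of the 10 genes with the widest gap, 7 were in the set.

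Few genes were lower on KO1 by as much. Fam107a was at 3.64 on KO1 against 4.99 to 5.24, and was the 1 gene over 1 below every other array. Esco2, which acts in sister chromatid cohesion, was at 4.29 against 5.17 to 6.33, and Rrm2, a subunit of ribonucleotide reductase, at 7.45 against 8.21 to 9.14. Rhbdl3 (2.46 against 3.23 to 3.96) and Ass1, an enzyme of the urea cycle (6.32 against 7.01 to 7.93), followed.

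Further lists of muscle genes varied in how far they followed the set. Over all genes, 16.4% were highest on KO1 and 0.363% were over 1 above every other array there. Of 22 further sarcomere genes measured, 17 were highest on KO1 and 10 over 1 above every other array, among them Myom1 of the M-band (6.30 against 3.95 to 4.95) and Myom2 (4.43 against 2.78 to 2.99). Of 17 further excitation-contraction genes, 11 were highest on KO1 and 3 over 1 above. Trdn (triadin of the release complex) was at 6.57 against 4.71 to 5.02, while Stac3 was at 4.72 against 4.51 to 4.70 and Jsrp1 at 5.72 against 5.09 to 5.47. Of 16 further muscle metabolism genes, 10 were highest on KO1 and 5 over 1 above, with the muscle cytochrome oxidase subunits Cox6a2 (7.23 against 5.36 to 5.74) and Cox7a1 (7.14 against 4.17 to 5.89). Of the 13 genes of the dystrophin complex and membrane repair, 7 were highest on KO1 and 1 over 1 above. That gene was Cmya5 (6.16 against 3.88 to 4.35), named after its values were seen and also counted in the sarcomere list. Sgca, a sarcoglycan, was at 5.46 against 4.62 to 5.05.

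Of 8 further slow fibre genes, 5 were highest on KO1 and 3 over 1 above, namely Myh7, the slow heavy chain (5.80 against 3.52 to 4.16), Myl2 and Myoz2. The slow light chain Myl3 was at 5.79 against 4.64 to 5.11. Tpm3 and Atp2a2, named after their values were seen, were level, with Tpm3 at 10.17 on KO1 against 10.08 to 10.17 and Atp2a2, the slow and cardiac calcium pump that most tissues share, at 10.48 against 10.29 to 10.53. None of the 5 further developmental genes was highest on KO1. Chrng, the fetal subunit of the acetylcholine receptor, was at 4.31 against 3.78 to 4.42, and Actc1, the cardiac actin also used in fetal muscle, at 4.53 against 3.66 to 4.57. Of 9 myogenic regulators and satellite cell genes, 4 were highest on KO1 and 0 over 1 above. Myod1 was at 3.19 against 3.23 to 3.58, Myog at 4.13 against 3.04 to 3.68 and Myf5 at 1.55 against 1.59 to 1.90. Myf6, the regulator most abundant in mature fibres, which was named after its values were seen, was at 3.59 against 2.26 to 2.60.

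Markers of heart, smooth muscle and other tissues were mostly not over 1 above every other array on KO1. Over all genes, 16.4% were highest there. Of 11 heart markers, 4 were highest on KO1 and 0 over 1 above, with the atrial heavy chain Myh6 at 2.30 on KO1 against 2.09 to 2.39, the hormone gene Nppa at 3.66 against 3.03 to 3.49 and the cardiac Mybpc3 at 4.59 against 4.33 to 4.76. Of 10 smooth muscle markers, 3 were highest on KO1 and 1 over 1 above, Des (desmin, named after its values were seen and also in the sarcomere list), at 7.64 against 6.16 to 6.52. Myh11 (4.53 against 4.67 to 5.31), Acta2 (6.87 against 6.49 to 7.50) and Tagln (7.22 against 7.31 to 7.55) were at or below the others. None of 10 tendon, cartilage and bone markers was highest on KO1, with Tnmd at 2.66 against 2.45 to 2.69, Scx at 3.26 against 2.93 to 3.48 and Col2a1 at 3.64 against 3.70 to 4.01. Of 8 skin markers, 3 were highest and 0 over 1 above, with Krt5 at 4.34 against 4.45 to 4.75, Krt14 at 3.93 against 3.35 to 3.76 and Krt10 at 5.32 against 5.38 to 5.76. Of 6 neural markers, 1 was highest and 0 over 1 above, and Mbp was at 5.84 against 5.55 to 5.90.

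Adipose markers moved with the set in part. Of 7 measured, 6 were highest on KO1 and 2 over 1 above, and the list's summed linear level was 961 on KO1, 857 on KO2 and 633 on KO3, against 575, 653 and 618 on the WT arrays. Fabp4, at 9.57 on both KO1 and KO2 against 8.91 to 9.14 on the WT arrays, held most of that sum. Without it the sum was 201 on KO1, 96.8 on KO2 and 83.9 on KO3, against 94.4, 89.2 and 113 on the WT arrays. Adipoq (adiponectin) was at 4.62 on KO1, 2.42 on KO2 and 2.25 on KO3, against 2.62, 2.89 and 2.95 on the WT arrays. Cidea, Ucp1, Plin4, Fabp4, Lep and Retn were named after their values were seen. Cidea, a lipid droplet protein of brown fat, was at 5.28 against 3.10 to 3.92, Ucp1, the heat-producing uncoupling protein of brown fat, at 4.86 against 3.31 to 4.11, and Plin4 at 6.05 against 4.42 to 5.19. Lep (3.23 against 3.10 to 3.22) and Retn (5.02 against 4.65 to 4.91) were nearly level. The part of adipose transcripts in the levels of the muscle set was not tested.

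**Figure D4:**
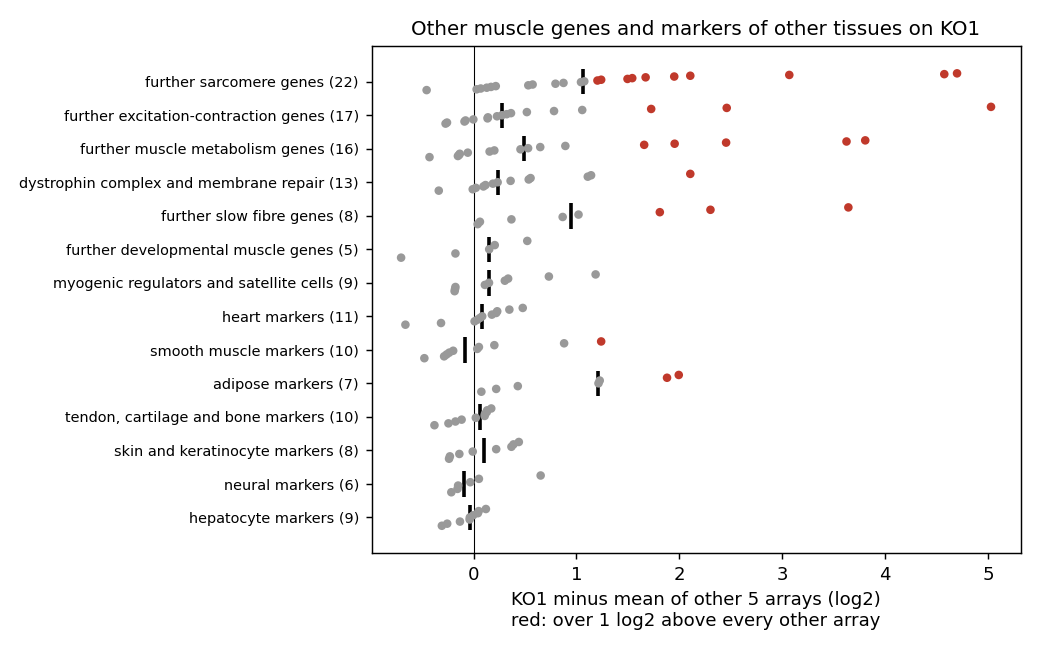
Difference between KO1 and the mean of the other 5 arrays (log2, horizontal axis) for each measured gene of 14 lists, with red points for genes over 1 above every other array, grey points for the rest, black lines for list medians and the number of genes in brackets. The sarcomere list has 10 red genes, and the heart, developmental, bone, skin, neural and hepatocyte lists have none.

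The genotype comparison asks whether the livers of Mir137-/- mice differ from those of Mir137+/+ mice, and KO1 weighs on it. Genes were called at a limma adjusted p below 0.05 with over 1.5-fold change. Over all 6 arrays 5.67% of genes were called (425 higher and 607 lower in Mir137-/-), and 0 of the 35 muscle genes. At an unadjusted limma p below 0.05 the set had 2, against 4877 of all 18193 genes. The methods' t-test called 0 of the set both with and without Benjamini-Hochberg adjustment. Over all genes it called 182 higher and 284 lower with adjustment, and 434 higher and 619 lower without. All 35 had a positive difference, which the choice of genes high on KO1 favours, with a median of 0.79 where the median of all genes was 0.00. With no test, 24 of the 35 were over 1.5-fold higher, against a background of 3.02% of genes. The standard error had a median of 0.56 for the set and 0.11 for all genes, as the KO mean held 1 array far from the other 2. Acta1 averaged 7.49 ± 3.39 on the KO arrays and 4.95 ± 0.34 on the WT arrays (SD, n = 3 each), a difference of 2.54 with an SE of 1.41 and a limma adjusted p of 0.3. Tnnc2 averaged 6.16 ± 3.59 on the KO arrays and 3.98 ± 0.33 on the WT arrays, and its limma adjusted p was 0.406.

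Without KO1 the set was close to the wild type. The median difference of KO2 and KO3 against WT was 0.08, where that of all genes was 0.00, and 25 of the 35 differences were positive. In this fit 5.18% of genes were called (408 higher and 534 lower), and 1 of the 35 muscle genes. With no test, 2 of the 35 were over 1.5-fold higher, Eno3 and Acta1, against a background of 2.93%. Both KO arrays were above all WT arrays for 7 genes of the set (background 19.1%) and below them for 1, Actn2 (background 20.6%).

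Eno3 was the called gene. It averaged 6.32 on KO2 and KO3 and 5.54 ± 0.04 (SD, n = 3) on the WT arrays, a difference of 0.78 with an SE of 0.15 and a limma adjusted p of 0.0259. With KO1 included the difference was 1.24 with an SE of 0.35 and a limma adjusted p of 0.0604. All 3 KO arrays were above all 3 WT arrays. The call without KO1 was lost in each fit that left out KO2, WT1, WT2 or WT3 (limma adjusted p 0.0715 to 0.0857) and with a sex term (0.163), and the difference stayed between 0.54 and 1.02 over the fits that left out 1 more array.

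Another 5 genes had an unadjusted limma p below 0.05 without KO1 and were not called. With Eno3 that is 6 of the 35, against 4204 of all 18193 genes. Tnnt1 differed by 0.44 with an SE of 0.14 and an adjusted p of 0.116, and both KO arrays were above all WT arrays. Acta1 differed by 0.59 with an adjusted p of 0.195, Myoz1 by 0.30 with an adjusted p of 0.106 and Myl1 by 0.24 with an adjusted p of 0.171. Actn2 differed by -0.53 with an adjusted p of 0.175, which became a call (-0.73, adjusted p 0.0445) without WT3. The other 29 genes had differences of -0.20 (Pygm) to 0.27 (Ttn).

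**Figure D5:**
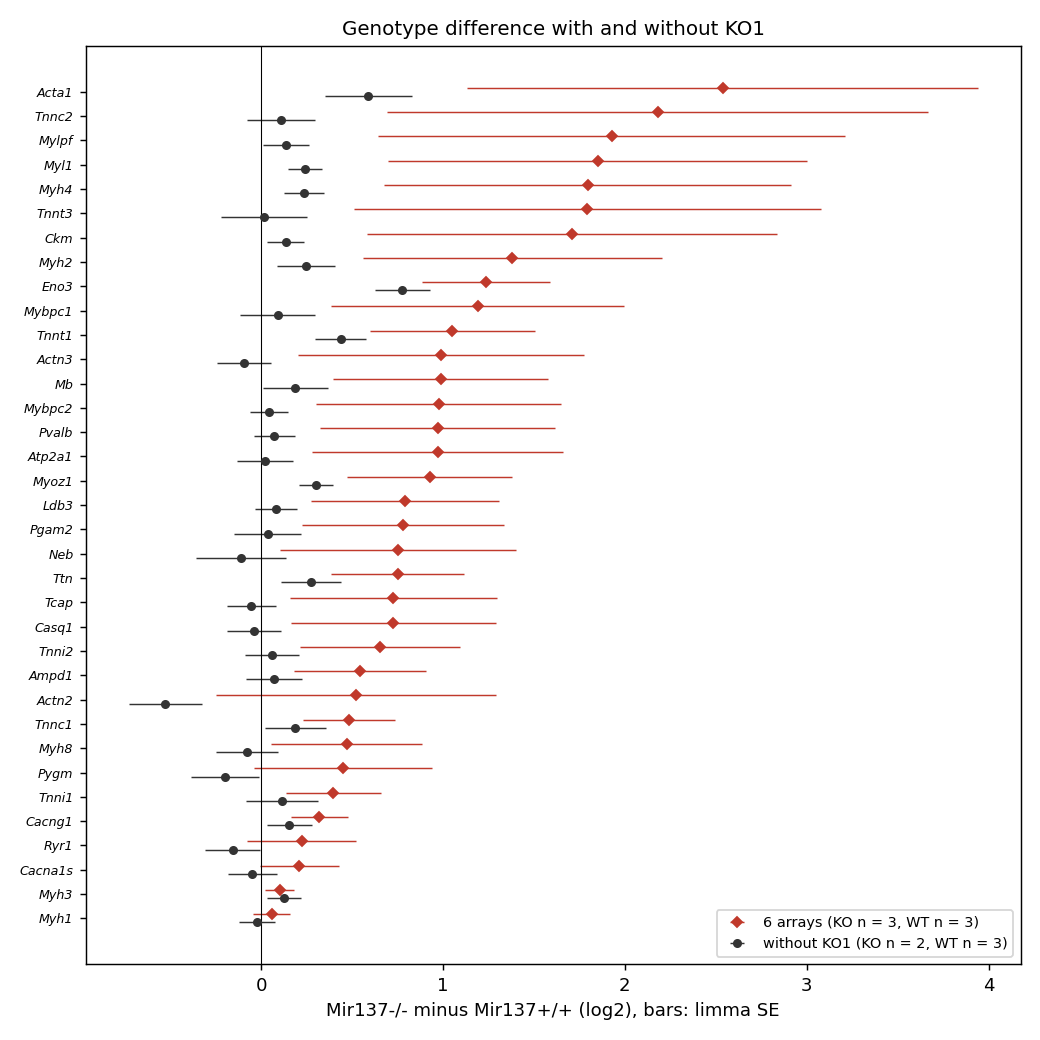
Difference Mir137-/- minus Mir137+/+ (log2, horizontal axis) for the 35 genes with 6 arrays (red diamonds) and without KO1 (black circles), with limma SE as bars. The red points are all above 0, and the black points lie around 0, apart from Eno3 at 0.78 and Acta1 at 0.59 on the right and Actn2 at -0.53 on the left.

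Some genes of the further muscle lists differed by genotype on all 3 KO arrays. KO1 was near KO2 and KO3 for these, apart from Fbp2 (6.31 on KO1 against 5.76 and 5.79). Over 6 arrays 1 sarcomere gene was called (lower), 1 excitation-contraction gene (lower), 1 metabolism gene (higher), 1 gene higher and 1 lower of the dystrophin complex and membrane repair, and 1 developmental gene (lower), and 0 of the slow fibre genes and of the myogenic regulators. That is 6 of 88 measured genes of these lists (6.82%), against 5.67% of all genes tested. They were named after their values were seen, apart from Dmd and Myl4, which the naming rule took in. Capn3, a calpain protease that is abundant in muscle, was at 7.12, 6.63 and 6.94 on the KO arrays against 5.60, 5.17 and 5.55 on the WT arrays, and was higher in Mir137-/- by 1.46 with an SE of 0.16 and a limma adjusted p of 0.00169. Csrp3, the muscle LIM protein, was at 5.58, 5.21 and 5.65 against 6.52, 6.42 and 6.38 on the WT arrays, and fell by 0.96 with a limma adjusted p of 0.00333. Myl4, the embryonic and atrial essential light chain, was at 4.82, 4.88 and 4.75 on the KO arrays against 5.70, 5.90 and 6.39 on the WT arrays, and fell by 1.18 with a limma adjusted p of 0.00443. Every KO array stood on the same side of every WT array for these 3 genes.

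Dmd (dystrophin) was at 8.30, 7.76 and 8.44 on the KO arrays against 9.07, 8.91 and 9.01 on the WT arrays, and fell by 0.83 with a limma adjusted p of 0.0198. Fbp2, the muscle fructose bisphosphatase, was at 6.31, 5.76 and 5.79 on the KO arrays against 5.06, 5.21 and 5.27 on the WT arrays, and was higher by 0.77 with a limma adjusted p of 0.0183. Mustn1 was at 6.41, 6.19 and 6.38 on the KO arrays against 6.89, 6.88 and 7.07 on the WT arrays, and fell by 0.62 with a limma adjusted p of 0.0079. All 6 of these genes were also called without KO1, at limma adjusted p of 0.00554 to 0.0383. In that fit 7 of the 88 measured genes of the muscle lists were called (7.95%), against 5.18% of all genes. Without KO1 none of the 6 was called with a sex term (limma adjusted p 0.0723 to 0.179) or with the replicate block (limma adjusted p 0.0555 to 0.166). Over all genes the sex term left 212 calls and the block 22, against 942 in the fit without KO1. The methods' t-test after Benjamini-Hochberg adjustment also called none of them without KO1, but it then called almost no gene at all. The block and this test thus cannot decide whether the calls hold. Over 6 arrays Dmd and Fbp2 lost their call whenever WT1, WT2 or WT3 was left out (limma adjusted p 0.0509 to 0.0695). Mustn1 fell under the fold threshold without KO2 (-0.55) or WT3 (-0.56), and Dmd with its probe sets averaged (-0.52). With the methods' t-test after Benjamini-Hochberg adjustment, Csrp3, Mustn1, Myl4, Fbp2 and Dmd lost their call over 6 arrays (adjusted p 0.0509 to 0.117). Myl4, Mustn1 and Fbp2 also lost it without the 2 arrays with pancreas transcripts (limma adjusted p 0.0577 to 0.0829). Cacnb1, a calcium channel subunit also named after its values were seen, was called lower without KO1 (-0.61, limma adjusted p 0.0195) and missed the fold threshold with it (-0.58), and its difference without KO1 was -0.06 when its probe sets were averaged. WT2 and WT3 were the arrays with Xist, and with a sex term over 6 arrays Capn3 (1.30) and Csrp3 (-1.04) were called and Myl4 (-0.88), Dmd (-0.90), Fbp2 (0.89) and Mustn1 (-0.56) were not (limma adjusted p 0.0774 to 0.139). Without WT2 and WT3, which leaves 1 WT array, Capn3 and Csrp3 lost their call too (limma adjusted p 0.0804 and 0.113), with the same differences.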

How the data were processed

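Whole-genome Affymetrix mouse arrays measured liver RNA of 6 mice at postnatal day 14, grouped by the genotype in the labels. The log2 levels were used as the authors deposited them. The submitters' processing notes name GCRMA, whereas the methods give RMA with baseline-to-mean normalization, and RNA input differs between the sources (labels: the standard protocol, methods: a two-cycle kit). Detection calls were not used, and no floor is stated for low log2 levels. The number of arrays limits the precision, and an exact permutation test of 3 against 3 cannot go below p = 0.1.

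Control probe sets (64) were left out. Of 45037 probe sets, 34945 had 1 gene symbol in the platform annotation, 932 several and 9160 none, and the brightest one stood for each of 18193 genes. Differences were fitted over all genes with limma 3.58.1 in R 4.3.3 (lmFit on group means, eBayes) and adjusted by Benjamini-Hochberg, with 6 arrays and without KO1. A call needed an adjusted p below 0.05 and over 1.5-fold. On simulated data of 18193 genes, the 6-array fit recovered 72 of 100 genes changed by 1 log2 unit and 97 of 100 changed by 2. The fit without KO1 recovered 60 and 96 of 100, and false calls were 4 and 7. The simulated spreads were shuffled over genes and no array was set apart. These counts thus do not describe genes with 1 array far from the rest, such as the muscle genes over 6 arrays. Files were handled with Python 3.11.15 and pandas 2.3.3, and plots were drawn with matplotlib 3.10.9.

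The 35 genes and all lists were chosen with earlier results of these data known. Named were all 35, the first 3 genes of each list, the 15 other genes furthest above and the 5 furthest below the rest on KO1, and the probe sets of the 35. Other genes are marked as named after their values were seen. Some listed genes are not reported here. Alternatives covered normalization, the choice of probe set, a filter on dim genes, other tests, array weights, a replicate block, sex, and leaving out arrays.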

Additional observations from a re-analysis of the deposited data

How the results depend on the processing

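Without KO1 the median difference of the muscle genes between Mir137-/- and Mir137+/+ was 0.08, against 0.79 with 6 arrays, and over all fits that left out 1 array it lay between 0.08 and 1.20. The count of called genes over 6 arrays was 0 and became 1, Eno3, without the 40% dimmest genes (10 of the 35 then tested) and with array weights, and lay between 0 and 1 when 1 array was left out (1 without KO1 or KO3). Without KO1 the count was 1 and became 0 with the methods' t-test after Benjamini-Hochberg adjustment and with a sex term. Over all genes the t-test then called 1 of 18193 and the fit with a sex term 212, against 942 in the fit without KO1. When 1 further WT array was left out, the count of the set lay between 0 and 1. Leaving out the WT arrays with Xist or the 2 arrays with pancreas transcripts leaves 1 array in a genotype and 1 residual degree of freedom. Neither these fits nor the t-test can thus decide whether the call holds.

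With the replicate block the count of called muscle genes was 0 over 6 arrays and 0 without KO1, where all calls dropped to 22 (942 without the block). The labels give same-numbered arrays only a number in common. The correlations of their deviations from the group means were 0.10, 0.23 and 0.03. Of the 3 KO arrays 2 correlated best with the WT array of their own number, and 2 WT arrays with the KO array of theirs. The pancreas markers were high on the same-numbered KO2 and WT2. Whether same-numbered mice were handled together was not tested.

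Leaving out 1 array turned the 6-array difference of 10 genes, each time without KO1. The ranges were -0.11 to 1.20 for Neb, -0.02 to 0.12 for Myh1, -0.08 to 0.80 for Myh8, -0.53 to 1.10 for Actn2, -0.09 to 1.56 for Actn3, -0.04 to 1.14 for Casq1, -0.16 to 0.51 for Ryr1, -0.05 to 0.42 for Cacna1s, -0.20 to 0.79 for Pygm and -0.05 to 1.17 for Tcap. On KO1 the median difference became 1.85 for shared genes when all probe sets of a gene were averaged, and 3.38 for fast genes without _s_at and _x_at probe sets. The class means were 3.46 (fast) and 1.84 (slow) in place of medians of 3.03 and 1.55. The cause of these shifts was not tested.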
